A study of Mus musculus with 24 samples.

Results

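A set of 8 genes that act as targets or feedback regulators of Wnt signalling were followed in MC38, a mouse colorectal cancer cell line of C57BL/6 origin. The set comprised Axin2, Nkd1, Rnf43, Znrf3, Tcf7, Lef1, Ccnd1 and Wnt9a. They were chosen by name, with earlier results of these data known, and matched to their Ensembl identifiers. All of them were present among the 52636 gene identifiers of the table. RNA of 24 samples was sequenced, 3 from each of 8 lines, and the values are normalized read counts per gene. MC38-WT carried no modification. MC38-CMAS KO, MC38-COSMC KO and MC38-DKO were made with CRISPR-Cas9 against Cmas, against C1galt1c1 (which encodes the chaperone COSMC) and against both genes, and MC38-MOCK#1 received the Cas9 construct with no target gene. MC38-FUT4 and MC38-FUT9 were labelled as lines that overexpress these fucosyltransferase genes through CRISPR-dCas-VPR, a Cas9 that does not cut and carries a transcriptional activator, and MC38-MOCK#2 received that system with no target. All lines other than MC38-WT were kept in puromycin. The samples of MC38-MOCK#1 and of the knockout lines came from passages 4 to 6, those of MC38-WT from passages 7 to 9, and those of MC38-MOCK#2 and both overexpression lines from passages 6 to 8. The MC38-COSMC KO cells were sorted as a bulk population for high binding of a lectin that recognises the truncated O-glycan Tn. Each modification is represented by 1 line, so the spread between samples is a spread between passages of that line and p-values measure no more than that.

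Wnt ligands bind Frizzled and LRP5 or LRP6 at the cell surface, which spares beta-catenin from the AXIN and APC destruction complex. Beta-catenin then enters the nucleus, joins transcription factors of the TCF and LEF family and switches on target genes, a step that is active in most colorectal tumours through loss of APC or mutation of CTNNB1. Several targets feed back: AXIN2 rebuilds the destruction complex, NKD1 binds Dishevelled, and the paralogous membrane ubiquitin ligases RNF43 and ZNRF3 remove Frizzled from the surface, whereas TCF7 and LEF1 carry the response, cyclin D1 (Ccnd1) drives entry into S phase and WNT9A is a ligand.

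Per sample, the normalized counts summed to between 10911849 and 12263307, and 1 read was estimated to amount to 0.756 to 1.67 normalized counts. The targeted genes were read first. Cmas lay at 93 to 142 normalized counts in MC38-CMAS KO and MC38-DKO and at 272 to 416 in all other samples. C1galt1c1 was lower in MC38-COSMC KO than in MC38-MOCK#1 (log2 fold change -0.73, adjusted p = 0.0128 in limma), while its difference in MC38-DKO was -0.38 (adjusted p = 0.459). In lines where it was not targeted, the difference was of like size, -0.39 in MC38-CMAS KO and -0.40 in MC38-MOCK#2 (adjusted p = 0.168 and 0.131 in limma). Fut4 was at 0 or 1 in every sample, also in the line labelled FUT4, which instead held 171 to 209 normalized counts of Fut9. The line labelled FUT9 held 641 to 955 of Fut9, and every other line 7 or less. Samples 1 and 3 of the line labelled FUT4 were both of passage 7 and differed less than any other pair of samples of 1 line, though by 1.6 times the counting error. Of the 7 colon epithelial markers examined, Epcam, Cdh1, Krt18 and Cdx2 did not exceed 3 normalized counts in any sample, and the sum of the 7 was 266 to 476 in the line labelled FUT4, almost all of it Krt20, against 2 to 49 in the other lines. The 5 mesenchymal or fibroblast markers summed to 20882 to 33857, nearly all of it Vim (19787 to 33315). Of the others in that list, Pdgfra lay at 401 to 1427, Col1a1 at 19 to 255, Col1a2 at 4 to 131 and Dcn at 0 to 417 with a median of 6. Pdgfra was highest in the line labelled FUT9 (910 to 1427, against 816 or less elsewhere), and Dcn in MC38-WT (129 to 417) and the line labelled FUT4 (46 to 125, against 31 or less in the rest). The 4 immune markers summed to 6 or less and the 3 endothelial markers to 19 or less. The part of these markers in the results on the Wnt genes was not tested.

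Ccnd1 dominated the set and Nkd1 was close to silent. Per kilobase of exon, the mean over the 24 samples was 999.6 normalized counts for Ccnd1, 58.2 for Znrf3, 51.8 for Tcf7 and 8.20 for Lef1. Rnf43, Axin2 and Wnt9a lay at 2.81, 2.64 and 2.58 per kilobase, and Nkd1 at 0.0366. Hence the feedback ligase Znrf3 was far more abundant per length than its paralog Rnf43, and Axin2, a widely used readout of the pathway, ranged only from 6 to 34 normalized counts per sample. Nkd1 was at 0 in 20 samples and at 1 in the other 4, and it was left out of the comparisons with the mock lines because more than 4 of 6 samples were at 0. In GRCm38, 5 of the 8 genes are on chromosome 11, namely Axin2 (chr11:108920349-108950783), Rnf43 (chr11:87662722-87735539), Znrf3 (chr11:5276324-5444847), Tcf7 (chr11:52252371-52283014) and Wnt9a (chr11:59306928-59333552). The others are Nkd1 (chr8:88521354-88594884), Lef1 (chr3:131110471-131224356) and Ccnd1 (chr7:144929931-144939925). Exons of Ccnd1 overlap those of LTO1 on the opposite strand (90 to 193 normalized counts), and exons of Lef1 overlap those of Gm43352 (2 to 19). Whether counting used the strand is not given in the sources used here.

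**Figure D1:**
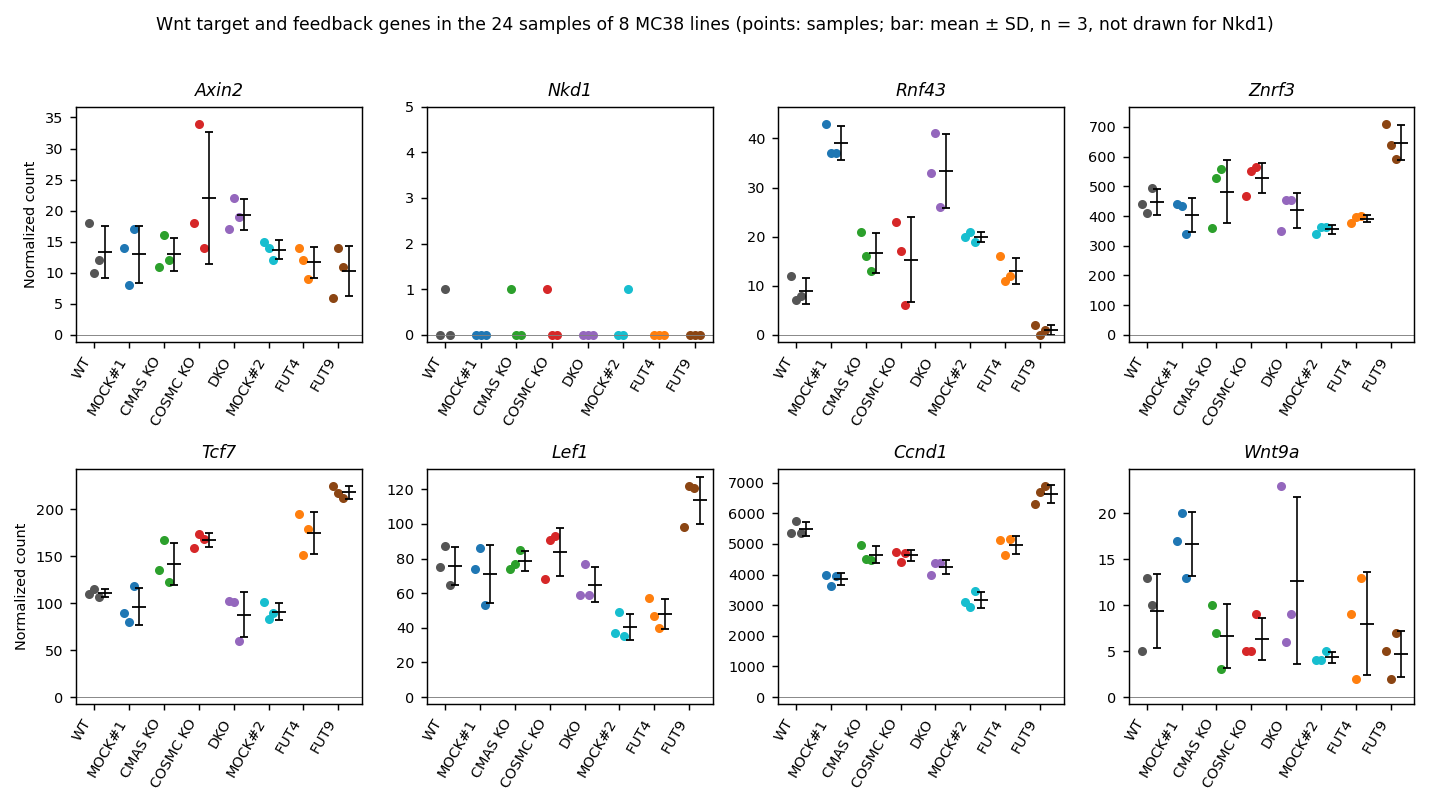
Normalized counts (y axis, linear) of the 8 Wnt target and feedback genes in each of the 24 samples, by line (x axis), with the mean and SD of the 3 samples drawn beside the points except for Nkd1. The 3 samples of the line labelled FUT9 are the highest of all for Znrf3, Tcf7, Lef1 and Ccnd1 and the lowest for Rnf43.

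The TCF and LEF factors recognise CTTTGAT, and a shorter core, CTTTG, lies within it. The 250 bases before the RefSeq start sites (GRCm38.p6) were searched on both strands. The long form occurred in 3.21% and the short form, which includes the long one, in 48.58% of 32851 promoters. Entries were found for Axin2, Nkd1, Rnf43, Tcf7, Lef1 and Wnt9a, and none for Znrf3 and Ccnd1. No entry held the long form, and Lef1 alone held the short one. The upstream sequences of Axin2 (chr11:108920099-108920348, plus strand) and of the second Lef1 start (chr3:131110073-131110322, plus strand) are shown because Axin2 was a low member that was called in no comparison and Lef1 a member that was called, with CTTTG in capitals.
Axin2: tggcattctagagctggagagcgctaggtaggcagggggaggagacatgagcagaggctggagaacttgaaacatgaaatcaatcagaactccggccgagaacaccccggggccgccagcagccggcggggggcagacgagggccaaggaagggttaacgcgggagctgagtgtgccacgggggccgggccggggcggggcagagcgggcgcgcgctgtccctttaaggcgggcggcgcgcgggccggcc
Lef1: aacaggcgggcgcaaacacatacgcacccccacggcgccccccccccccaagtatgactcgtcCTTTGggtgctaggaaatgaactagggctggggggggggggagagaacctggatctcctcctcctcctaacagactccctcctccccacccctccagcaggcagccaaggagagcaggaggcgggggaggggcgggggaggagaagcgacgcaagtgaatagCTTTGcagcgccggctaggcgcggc
The copies in Lef1 begin 187 and 25 bases before the start. A match of letters is not a binding site, and its absence from this window says nothing of the factor.

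The line labelled FUT9 differed most from its reference MC38-MOCK#2: Znrf3, Tcf7, Lef1 and Ccnd1 rose 1.82- to 2.79-fold and Rnf43 fell to the edge of detection. These 5 of the 7 members tested were called at an adjusted p below 0.05 (limma, Benjamini-Hochberg over all genes), whereas 24.1% of all genes tested were called and 36.8% did not overlap between the groups in this comparison. Because these are bulk cultures, fewer cells that express a gene and less RNA per cell cannot be told apart. Among the feedback ligases, Rnf43 was at 20, 21 and 19 normalized counts in MC38-MOCK#2 and at 2, 0 and 1 in the line labelled FUT9. The groups did not overlap, and the 3 samples of the line labelled FUT9 were the lowest of all 24. About 3 reads stood against 55, a ratio of 0.0408 with a 95% interval from 0.0082 to 0.126 that covers counting error only (log2 fold change -3.53 ± 0.46 SE after adding 1, adjusted p = 0.00255 in limma). Its paralog Znrf3 moved the other way, from 339, 363 and 364 to 711, 639 and 592 (+0.86 ± 0.087, adjusted p = 0.001 in limma). Every sample of the line labelled FUT9 thus exceeded every sample of the reference for Znrf3.

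Both transcription factors were higher in the line labelled FUT9. Tcf7, which encodes TCF1, was at 101, 83 and 89 in MC38-MOCK#2 and at 225, 217 and 212 in the line labelled FUT9 (+1.26 ± 0.11, adjusted p = 0.000645 in limma). Lef1 was at 37, 49 and 35 against 98, 122 and 121 (+1.48 ± 0.18, adjusted p = 0.00211 in limma), the largest rise in the set. Neither pair of groups overlapped. Ccnd1, already the most abundant member, was at 3119, 2937 and 3449 against 6297, 6709 and 6900 (+1.07 ± 0.079, adjusted p = 0.000386 in limma), again with no overlap. Axin2 was at 15, 14 and 12 against 6, 14 and 11, a log2 difference of -0.44 with a 95% interval from -1.29 to 0.42, and Wnt9a at 4, 4 and 5 against 5, 2 and 7 (-0.02, interval -1.07 to 1.04). Both pairs of groups overlapped, and each interval reached beyond a 2-fold change in at least 1 direction. The 5 calls were kept in 7 of 7 other settings and when any 1 of the 6 samples was left out.

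The line labelled FUT4, compared with the same MC38-MOCK#2 samples, showed higher Tcf7 and Ccnd1 and no call on the feedback genes. These were 2 of 7 members tested, beside 16.1% of all genes, and 4 of 7 did not overlap, beside 32.1%. Tcf7 was at 195, 151 and 179 (+0.93 ± 0.14 against MC38-MOCK#2, adjusted p = 0.00611 in limma), and Ccnd1 at 5123, 4625 and 5154 (+0.65 ± 0.083, adjusted p = 0.00323 in limma). Neither gene's samples overlapped those of the reference, and both calls were kept in 7 of 7 other settings and in 6 of 6 fits without 1 sample, which include those without sample 1 or 3. Rnf43 was at 16, 11 and 12 (-0.60, interval -1.24 to 0.04, adjusted p = 0.194 in limma) and Znrf3 at 377, 398 and 400 (+0.14, interval -0.03 to 0.31, adjusted p = 0.266 in limma). For both, the samples lay just outside the range of MC38-MOCK#2 without passing the test. Lef1 was at 57, 47 and 40, Axin2 at 14, 12 and 9 and Wnt9a at 9, 2 and 13, all of which overlapped the reference.

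Set side by side with Fut9 RNA, which was 0 or 1 in MC38-MOCK#2, 171 to 209 in the line labelled FUT4 and 641 to 955 in the line labelled FUT9, 4 of the 7 members tested followed the same or the opposite order of these 3 lines without overlap. Tcf7, Ccnd1 and Znrf3 rose in this order and Rnf43 fell. Of 20944 genes, which include genes with few reads, 3.59% were ordered in this way. No share was taken among genes with more reads, so the 4 of 7 is not read as an excess. The step from the line labelled FUT4 to that labelled FUT9 was then tested itself, a comparison added after the values were seen. Against the line labelled FUT4, the line labelled FUT9 was higher for Znrf3 (+0.72 ± 0.080, adjusted p = 0.000813 in limma), Lef1 (+1.23 ± 0.17, adjusted p = 0.0021) and Ccnd1 (+0.42 ± 0.065, adjusted p = 0.00319) and lower for Rnf43 (-2.93 ± 0.47, adjusted p = 0.00374). Tcf7 differed by +0.32 with an adjusted p of 0.0652. These were 4 of 7 members beside 31.5% of all genes.

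MC38-MOCK#2 itself was the lowest of the 8 lines in mean Znrf3, Lef1, Ccnd1 and Wnt9a, so both lines were also compared with MC38-WT, likewise after the values were seen. Against MC38-WT, the line labelled FUT9 kept 4 of its calls (13.7% of all genes called). Rnf43 was lower (-2.43 ± 0.51, adjusted p = 0.0217 in limma; MC38-WT at 12, 7 and 8), and Znrf3 (+0.53 ± 0.11, adjusted p = 0.0173), Tcf7 (+0.97 ± 0.11, adjusted p = 0.00213) and Ccnd1 (+0.27 ± 0.074, adjusted p = 0.0495) were higher. Lef1 was at 75, 87 and 65 in MC38-WT and its difference was +0.58 with an adjusted p of 0.0638. The line labelled FUT4 kept Tcf7 alone (1 of 7, beside 7.91% of all genes; +0.65 ± 0.14, adjusted p = 0.0309 in limma). Its Ccnd1 difference turned in sign, from +0.65 against MC38-MOCK#2 to -0.15 against MC38-WT (interval -0.33 to 0.03), where the MC38-WT samples stood at 5366, 5749 and 5367 and did not overlap those of the line labelled FUT4. Its Rnf43 (-0.60 and +0.50), Znrf3 (+0.14 and -0.19) and Lef1 (+0.25 and -0.65) differences had opposite signs against the 2 references too, none of them called. The direction given for Ccnd1 in the line labelled FUT4, and the order of the 3 lines above, therefore hold for MC38-MOCK#2 as the reference.

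**Figure D2:**
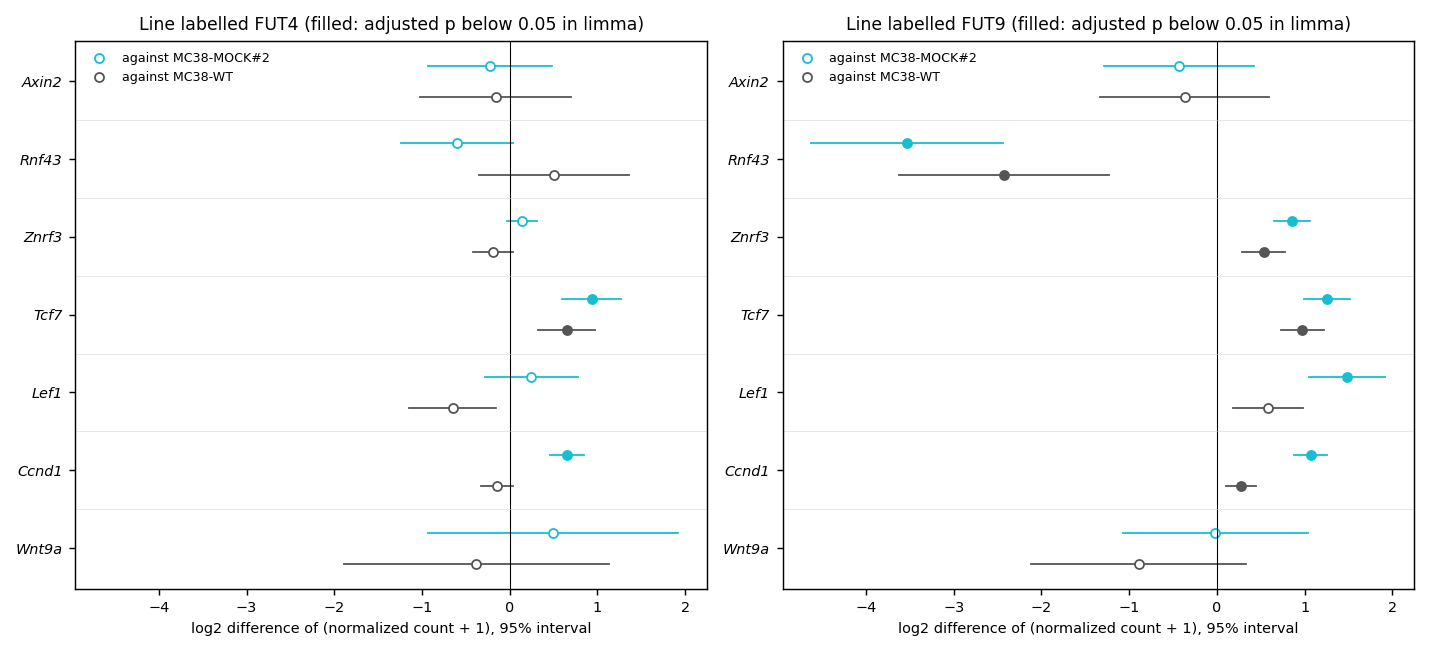
Log2 differences (x axis, with 95% intervals) of the 7 members tested (y axis) in the line labelled FUT4 (left) and the line labelled FUT9 (right), against MC38-MOCK#2 and against MC38-WT; filled points were called. Znrf3, Tcf7 and Ccnd1 lie above 0 and Rnf43 below 0 against both references on the right, whereas Ccnd1 on the left changes from +0.65 to -0.15.

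Among the lines made with cutting Cas9, MC38-COSMC KO had higher Tcf7 and slightly higher Ccnd1 than MC38-MOCK#1. Tcf7 was at 90, 80 and 118 in MC38-MOCK#1 and at 159, 174 and 168 in MC38-COSMC KO (+0.81 ± 0.16, adjusted p = 0.0197 in limma). Ccnd1 was at 3993, 3636 and 3967 against 4730, 4421 and 4722 (+0.26 ± 0.058, adjusted p = 0.0304 in limma). Neither pair overlapped, and these 2 of 7 members stood beside 11.6% of all genes. Rnf43 was at 43, 37 and 37 in MC38-MOCK#1 and at 23, 17 and 6 in MC38-COSMC KO, again without overlap, but the spread of the knockout samples left it at -1.46 ± 0.45 with an adjusted p of 0.0825 in limma. Znrf3 (442, 433 and 339 against 469, 550 and 564) and Wnt9a (17, 20 and 13 against 5, 5 and 9) also did not overlap, with adjusted p of 0.0927 and 0.0586, which made 5 of 7 members without overlap beside 28.4% of all genes. Axin2 (14, 8 and 17 against 18, 34 and 14) and Lef1 (74, 86 and 53 against 68, 91 and 93) overlapped. The 2 calls depended on single samples: Ccnd1 lost its call whichever of the 6 samples was left out (adjusted p from 0.0556 to 0.107), and Tcf7 kept its call only without MC38-MOCK#1 sample 3 (0.0137, otherwise up to 0.1). Against MC38-WT, compared after the values were seen, no member of 8 tested in MC38-COSMC KO was called (0.581% of all genes called), 2 had an unadjusted p below 0.05 in limma, and Ccnd1 turned to -0.25.

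MC38-CMAS KO had lower Rnf43 than MC38-MOCK#1, at 21, 16 and 13 against 43, 37 and 37 (-1.20 ± 0.25, adjusted p = 0.0401 in limma), with no overlap. This was 1 of 7 members beside 5.76% of all genes, and it was lost when any 1 of the 6 samples was left out (adjusted p from 0.0546 to 0.125) and with all 24 samples in 1 fit (0.0717). Ccnd1 at 4982, 4507 and 4470 and Tcf7 at 135, 167 and 123 lay above all samples of MC38-MOCK#1 without passing the test (+0.27, adjusted p = 0.0714, and +0.56, adjusted p = 0.139). Wnt9a was at 10, 7 and 3, below all samples of MC38-MOCK#1 (-1.30, adjusted p = 0.143), so that 4 of 7 members did not overlap, beside 24.3% of all genes. Znrf3 (361, 529 and 557), Lef1 (74, 77 and 85) and Axin2 (11, 16 and 12) overlapped the reference. Against MC38-WT, 0 of 8 members were called (0.236% of all genes called) and 1 had an unadjusted p below 0.05 in limma.

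In MC38-DKO no member was called against MC38-MOCK#1, 0 had an unadjusted p below 0.05 in limma, and 0.092% of all genes were called. Rnf43 was at 33, 41 and 26 (-0.24, interval -0.80 to 0.32), Tcf7 at 102, 101 and 60 (-0.15, interval -0.71 to 0.41) and Ccnd1 at 3997, 4378 and 4370 (+0.14, interval -0.03 to 0.30). Rnf43 and Tcf7 overlapped MC38-MOCK#1, and all 3 Ccnd1 values lay just above it, the 1 member of 7 without overlap (11.2% of all genes). Znrf3 (351, 454 and 454), Lef1 (59, 77 and 59) and Wnt9a (23, 6 and 9) overlapped too, and Axin2 was at 17, 22 and 19 (+0.59, interval -0.23 to 1.41). Against MC38-WT, MC38-DKO had higher Rnf43 (+1.79 ± 0.37, adjusted p = 0.0206 in limma) and lower Ccnd1 (-0.37 ± 0.084, adjusted p = 0.0311), 2 of 7 members beside 7.54% of all genes.

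**Figure D3:**
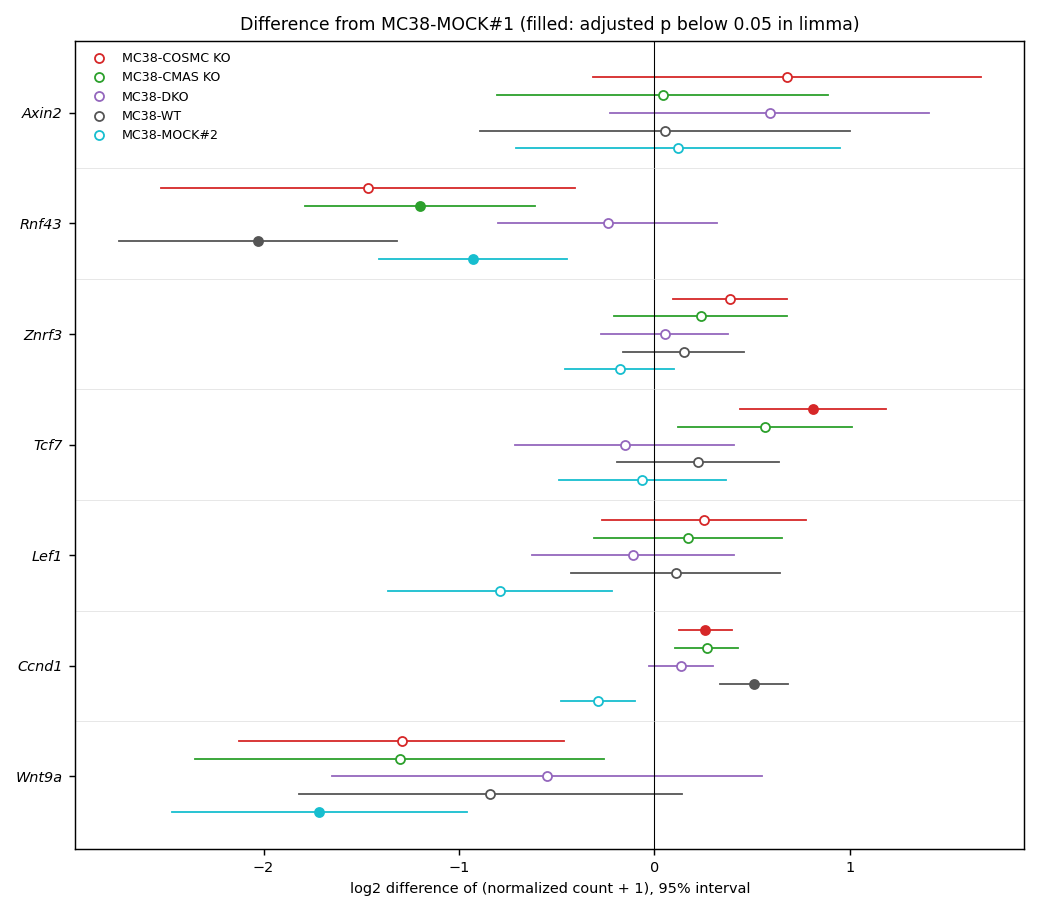
Log2 differences from MC38-MOCK#1 (x axis, with 95% intervals) of the 7 members tested (y axis) in 5 lines; filled points were called. Rnf43 lies below 0 in all 5 lines and is called in 3, and the MC38-DKO points lie nearest to 0 for Rnf43, Znrf3 and Ccnd1.

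The unmodified line differed from MC38-MOCK#1 in the same feedback ligase. Rnf43 was at 12, 7 and 8 in MC38-WT (-2.03 ± 0.30, adjusted p = 0.014 in limma) and Ccnd1 was higher (+0.51 ± 0.074, adjusted p = 0.0127 in limma), both without overlap (23.4% of all genes), 2 of 7 members beside 5.51% of all genes. Both calls were kept without MC38-WT sample 1 or 2 and lost without MC38-WT sample 3 or any sample of MC38-MOCK#1 (adjusted p up to 0.101). In the same line Tcf7 was at 110, 115 and 107, Znrf3 at 439, 409 and 493, Lef1 at 75, 87 and 65, Axin2 at 18, 10 and 12 and Wnt9a at 5, 13 and 10, none of them called. MC38-MOCK#2 was also lower than MC38-MOCK#1 in Rnf43 (-0.93 ± 0.20, adjusted p = 0.0324 in limma) and in the ligand Wnt9a (-1.71 ± 0.32, adjusted p = 0.0188), without overlap, 2 of 7 members beside 11.3% of all genes. Lef1 (-0.79, adjusted p = 0.0851) and Ccnd1 (-0.29, adjusted p = 0.0655) lay below all samples of MC38-MOCK#1 without passing the test, and Ccnd1 passed it without MC38-MOCK#2 sample 3 (adjusted p = 0.0443). Hence 4 of 7 members did not overlap, beside 28.7% of all genes. Rnf43 lost its call whichever sample was left out (adjusted p from 0.0528 to 0.0822), and Wnt9a kept its call only without MC38-MOCK#1 sample 3 or MC38-MOCK#2 sample 3 (adjusted p from 0.0322 to 0.0777 over the 6 fits). With all 24 samples in 1 fit, Rnf43 was not called (adjusted p = 0.134) whereas Lef1 (0.00766) and Ccnd1 (0.00542) were. MC38-COSMC KO, MC38-CMAS KO, MC38-DKO, MC38-WT and MC38-MOCK#2 share the 3 MC38-MOCK#1 samples in these comparisons, so a level particular to those samples enters all 5.

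The 4 Cas9 lines form a design in which the COSMC difference can be read without and with the CMAS knockout. For Rnf43 this difference was -1.46 between MC38-COSMC KO and MC38-MOCK#1 and +0.96 between MC38-DKO and MC38-CMAS KO, and the difference of the 2 was +2.42 ± 0.56 (adjusted p = 0.00632 in limma). For Tcf7 the values were +0.81 and -0.71 (-1.53 ± 0.29, adjusted p = 0.00188), and for Ccnd1 +0.26 and -0.13 (-0.39 ± 0.095, adjusted p = 0.00873). The signs were opposite in all 3 genes. These were 3 of 7 members beside 22.1% of all genes, and their calls were kept in 7 of 7 other settings and in 12 of 12 fits without 1 sample. Znrf3 had +0.39 and -0.19 (adjusted p = 0.0955), Lef1 +0.25 and -0.28 (adjusted p = 0.226) and Wnt9a -1.29 and +0.75 (adjusted p = 0.0551). Without sample 1 of MC38-CMAS KO, Znrf3 (adjusted p = 0.0125) and Wnt9a (0.0367) were called as well, which took the count from 3 to 5. For Axin2 both values had the same sign, +0.68 and +0.55 (adjusted p = 0.907).

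**Figure D4:**
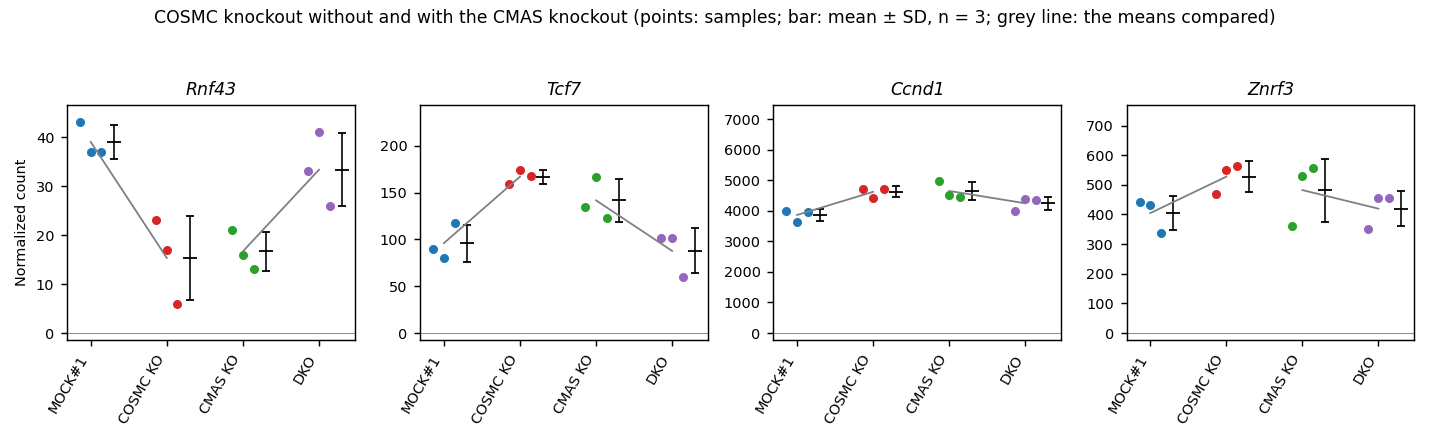
Normalized counts (y axis, linear from 0) of Rnf43, Tcf7, Ccnd1 and Znrf3 in the 3 samples of MC38-MOCK#1, MC38-COSMC KO, MC38-CMAS KO and MC38-DKO (x axis), with mean and SD and a grey line that joins the means compared. The grey lines slope in opposite directions in each panel; the difference in slope was called for Rnf43, Tcf7 and Ccnd1 and not for Znrf3.

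Over all 8 lines, 5 of 7 members differed by the moderated F test of limma, beside 48.2% of all genes. Among genes with a mean of at least 10, 9153 of 13515 were called. Ccnd1 had the lowest adjusted p (1.95e-09), followed by Rnf43 (2.64e-07), Tcf7 (3.17e-06), Lef1 (6.05e-05) and Znrf3 (0.00051). Axin2 (0.235) and Wnt9a (0.123) were not called. Ordered by mean, the lines separated best for Ccnd1, where the samples of neighbouring lines did not overlap at 5 of 7 steps. Its levels fell from the line labelled FUT9 over MC38-WT, the line labelled FUT4, MC38-CMAS KO and MC38-COSMC KO to MC38-DKO, MC38-MOCK#1 and MC38-MOCK#2, and the 3 middle lines of this order overlapped. For Rnf43, Znrf3, Tcf7 and Lef1, neighbours were apart at 2 of 7 steps, 1 of which set the line labelled FUT9 apart. For Rnf43 the other step set MC38-MOCK#1 and MC38-DKO (26 to 43) above all other lines (23 or less). Neighbouring lines overlapped at 6 of 7 steps for Axin2 and at all 7 for Wnt9a.

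Across the 24 samples, which are 3 samples of each of 8 lines and not 24 independent points, log2 levels of Znrf3 and Lef1 had a Pearson r of 0.79, those of Ccnd1 and Tcf7 0.69, and those of Rnf43 were inversely related to Ccnd1 (-0.76), Znrf3 (-0.68) and Tcf7 (-0.68). Axin2, at few reads, had an r between -0.26 and 0.36 with these 5 genes, and Wnt9a and Nkd1, whose means were below 10, were left out. The genes with the pattern most like a member, among those with a mean of at least 10, were Acad12 (0.955), Slc17a7 (0.938) and Kcnk6 (0.933) for Rnf43, and Parvb (0.929), Atp2b1 (0.928) and Hivep3 (0.917) for Ccnd1. For Tcf7 they were Baz2a (0.931), Gja1 (0.897) and Mapk1ip1l (0.870), for Znrf3 Tet3 (0.883), Nxf1 (0.882) and Zfp568 (0.878), and for Lef1 Prodh (0.832), Zfp568 (0.829) and Morc4 (0.824). Zfp568 was among the nearest genes of both Znrf3 and Lef1. The nearest gene of Axin2, Gtf2b, reached only 0.652.

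Other Wnt pathway genes were read from lists of 100 genes, of which 64 to 69 were tested per comparison. Against MC38-MOCK#2, 16 of 65 were higher and 6 lower in the line labelled FUT9 (33.8%, beside 24.1% of all genes). In the line labelled FUT4, 12 of 65 were higher and 11 lower (35.4%, beside 16.1%). Among genes with a mean of at least 10, 5120 of 13315 and 3551 of 13445 were called in these lines. The lists were not filtered in this way. Against MC38-MOCK#1, 7 of 68 were higher and 5 lower in MC38-COSMC KO (17.6%, beside 11.6% of all genes). In MC38-CMAS KO, 7 of 67 were higher and 3 lower (14.9%, beside 5.76%). In MC38-WT, 8 of 69 were higher and 2 lower (14.5%, beside 5.51%). None of 64 was called in MC38-DKO (0.092% of all genes). In MC38-MOCK#2, 8 of 64 were higher and 6 lower than in MC38-MOCK#1 (21.9%, beside 11.3%). Among genes with a mean of at least 10, 3008 of 13502 were called in MC38-COSMC KO and 1634 of 13504 in MC38-CMAS KO. The same count was 1367 of 13515 in MC38-WT, 20 of 13483 in MC38-DKO and 2731 of 13447 in MC38-MOCK#2. With all samples rescaled to the same total, the counts of listed genes were 14 higher and 8 lower in the line labelled FUT9 and 6 and 7 in MC38-MOCK#2. They were then 7 and 6 in MC38-COSMC KO, 6 and 3 in MC38-CMAS KO and 6 and 2 in MC38-WT. The median log2 fold change of the listed genes was +0.07 in the line labelled FUT9 and -0.04 in the line labelled FUT4, beside +0.01 and 0 for all genes.

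**Figure D5:**
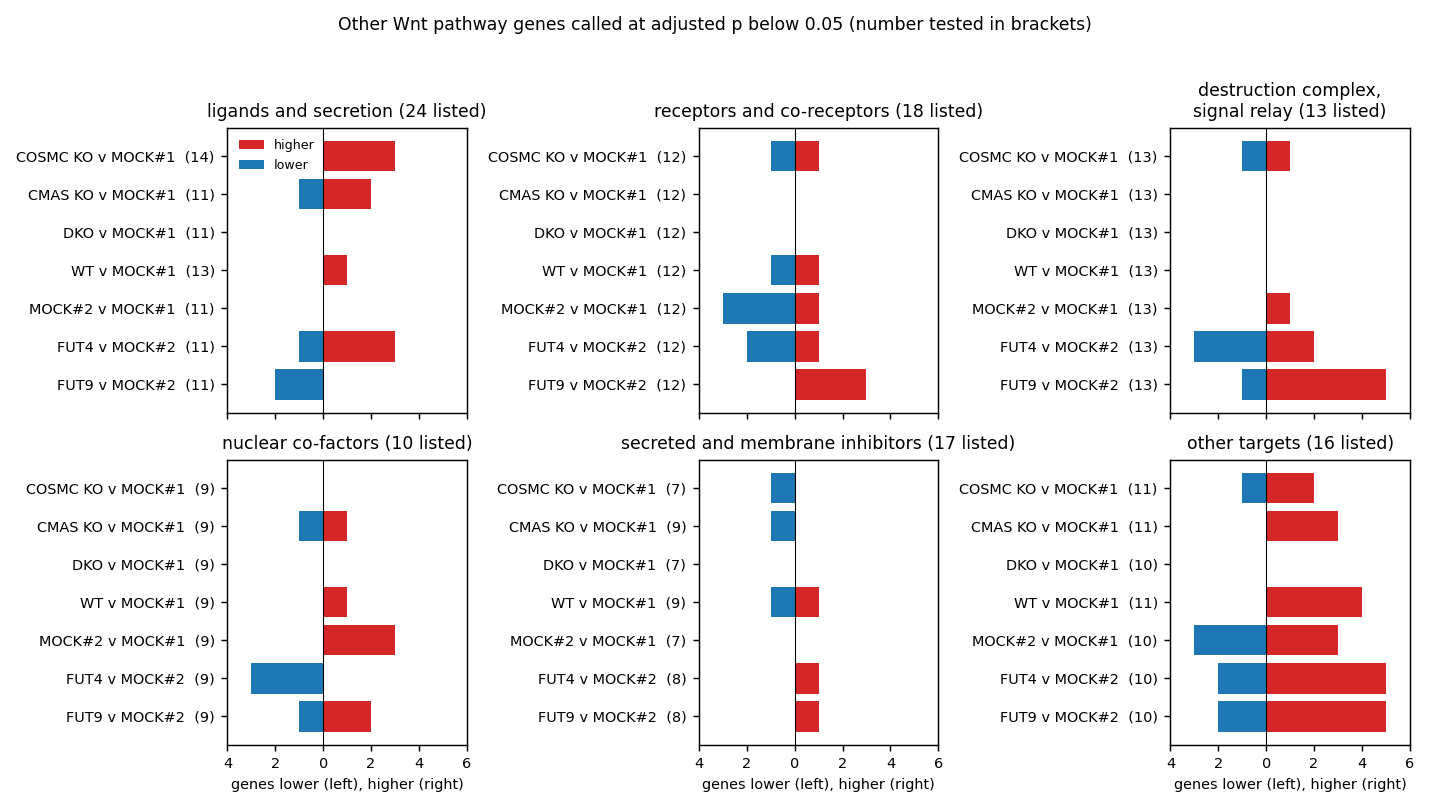
Number of other Wnt pathway genes called higher (right, red) or lower (left, blue) in 7 comparisons (y axis, with the number tested in brackets), in a panel for each of 6 lists. The list of other targets has the most calls in the lines labelled FUT4 and FUT9, 5 higher and 2 lower of 10 in each. In MC38-MOCK#2 against MC38-MOCK#1 it has 3 higher and 3 lower of 10. Of all genes, 16.1%, 24.1% and 11.3% were called in these comparisons.

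Among other targets of the pathway, Sox9 and Ephb2 moved in opposite directions from MC38-MOCK#2 to the line labelled FUT9. Sox9, a transcription factor of crypt progenitors, was at 712, 662 and 1211 in the line labelled FUT9 and at 182, 215 and 332 in MC38-MOCK#2 (+1.81 ± 0.29, adjusted p = 0.0057 in limma). The MC38-WT samples, at 351, 909 and 873, overlapped those of the line labelled FUT9, so this rise holds for MC38-MOCK#2 as the reference. Ephb2, the receptor that positions cells along the crypt, was at 5, 1 and 3 against 81, 98 and 213 (-5.05 ± 0.52, adjusted p = 0.00108) and at 19, 6 and 13 in the line labelled FUT4 (-3.26 ± 0.50, adjusted p = 0.00606, kept in 11 of 13 other fits, which are the 7 other settings and the 6 fits without 1 sample). Sox4, a transcription factor gene, was low in MC38-MOCK#2, at 22, 9 and 21, and higher in both the line labelled FUT4 (251, 171 and 194, +3.57, adjusted p = 0.00126 in limma) and that labelled FUT9 (123, 110 and 134, +2.84, adjusted p = 0.0018). Its level in those lines lay within the 119 to 270 of MC38-WT, MC38-MOCK#1 and the knockout lines or just below it. Sox9 also differed among the Cas9 lines, at 112, 108 and 92 in MC38-MOCK#1 and 141, 173 and 159 in MC38-DKO against 336 to 536 in MC38-COSMC KO and MC38-CMAS KO. The unmodified MC38-WT, at 351 to 909, also lay above MC38-MOCK#1 and MC38-DKO. Its Sox9 call against MC38-MOCK#1 was kept in 7 of 13 other fits. The Sox9 calls in MC38-COSMC KO and MC38-CMAS KO were each kept in 12 of 13 other fits. The COSMC difference of Sox9 was +2.06 without and -1.58 with the CMAS knockout, the difference of which was -3.64 ± 0.21 (adjusted p = 5.96e-08 in limma).

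Of the ligands, Wnt10b, an activator of the beta-catenin branch, was at 725, 442 and 747 in the line labelled FUT4, at 82, 60 and 51 in the line labelled FUT9 and at 128, 129 and 103 in MC38-MOCK#2. It was thus higher in the former (+2.37 ± 0.22, adjusted p = 0.000953 in limma) and lower in the latter (-0.91 ± 0.20, adjusted p = 0.0193, kept in 9 of 13 other fits), so that the pair of lines stood on opposite sides of their reference. Wnt11 was at 23, 7 and 21 in the line labelled FUT4 and at 0 in all 3 samples of the line labelled FUT9, against 1, 0 and 1 in MC38-MOCK#2. Wnt5a was at 16, 24 and 22 in MC38-WT and did not exceed 10 in any other sample. Among receptors, Fzd9 was higher than in MC38-MOCK#2 in both lines (+1.13 and +1.63, adjusted p = 0.00999 and 0.00251 in limma). It was at 23 to 27 in MC38-MOCK#2 and 51 to 66 in the line labelled FUT4, which overlapped the 34 to 63 of MC38-MOCK#1. Ryk was at 1380 to 1391 in the line labelled FUT9 (+0.38, adjusted p = 0.0155, kept in 7 of 13 other fits), and Ror1 was at 26 to 46 in MC38-MOCK#1 and 32 to 43 in MC38-DKO against 26 or less elsewhere.

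Inside the cell, the destruction complex gene Apc2, a neural relative of Apc, was at 65, 61 and 56 in the line labelled FUT9 against 15, 11 and 11 in MC38-MOCK#2 (+2.22 ± 0.22, adjusted p = 0.000925 in limma). It was at 67, 73 and 74 in MC38-COSMC KO and at 9, 10 and 6 in MC38-DKO. Gsk3b, the kinase that marks beta-catenin for destruction, was lower in the line labelled FUT4 alone among the 7 comparisons (709, 713 and 612 against 1043, 1048 and 1137 in MC38-MOCK#2, -0.67 ± 0.084, adjusted p = 0.00302 in limma). Dvl2, a relay between receptor and destruction complex, was lower in the line labelled FUT9 (-0.43, adjusted p = 0.00276, kept in 13 of 13 other fits). Its difference in the line labelled FUT4 was -0.28 (adjusted p = 0.0424), a call kept in only 5 of 13. Dvl2 was at 948 to 1091 there, 967 to 1194 in MC38-WT and 1209 to 1296 in MC38-MOCK#2. The co-factor gene Bcl9l was lower in the line labelled FUT4 (-0.65 ± 0.081, adjusted p = 0.00302). The co-repressor gene Tle2 had -0.85 in the line labelled FUT4 (adjusted p = 0.0476, kept in 6 of 13 other fits) and -1.32 in that labelled FUT9 (adjusted p = 0.0156, kept in 7 of 13). Bcl9l was at 966 to 1150 in MC38-MOCK#2, 652 to 691 in the line labelled FUT4 and 587 to 785 in MC38-WT. Tle2 was at 536 to 886 in MC38-MOCK#2, against 244 to 506 in MC38-WT. It was at 294 to 447 in the line labelled FUT4 and 193 to 367 in that labelled FUT9. Both genes were also called higher in MC38-MOCK#2 than in MC38-MOCK#1 (kept in 11 and 9 of 13 other fits). Of the extracellular inhibitors, Dkk2 was at 35, 30 and 51 in the line labelled FUT9 and at 11, 10 and 8 in that labelled FUT4, against 1, 0 and 0 in MC38-MOCK#2. In MC38-WT it was at 2, 13 and 10, which overlapped the line labelled FUT4. Dkk3 did not exceed 4 in any sample. Apcdd1 was at 156 to 188 in MC38-MOCK#1 and at 80 to 114 in MC38-WT, MC38-CMAS KO and MC38-COSMC KO. Of the paralogs of the members, 3 were called below their reference with calls that many other fits ended. Tcf7l1 had -0.80 ± 0.18 in the line labelled FUT4 (adjusted p = 0.0268 in limma, kept in 5 of 13 other fits), and Axin1 -0.25 ± 0.058 in the same line (adjusted p = 0.0296, kept in 7 of 13). That line overlapped MC38-WT in both genes, at 171 to 244 against 216 to 321 and at 1172 to 1261 against 1147 to 1346. Ccnd3 had -0.29 ± 0.062 in MC38-COSMC KO (adjusted p = 0.0266, kept in 4 of 13). In MC38-CMAS KO, 1 of the 5 paralogs tested was called above MC38-MOCK#1 and 1, Tcf7l1, below it (kept in 5 of 13).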

How the data were processed

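RNA of 24 MC38 samples, 3 per line, was sequenced as single reads of 50 bases from stranded mRNA libraries. According to the study's methods, reads were trimmed, aligned to GRCm38 with HISAT2 2.0.4, and counted per Ensembl gene with featureCounts (Subread 1.5.0-p3), leaving out reads that overlapped several genes. As deposited, each value is a score, a read count that the authors divided by library size and TMM factor in edgeR 3.18.1 and rounded to a whole number. It was not treated as a raw count. The depth per library was estimated at 6.76 to 16.2 M reads from gaps in the low whole numbers, with a method whose form was changed after values had been seen. In simulation, values of 1 read at least 2% from 1 were recovered to 0.0033%, and nearer ones were off by up to 10.9%.

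Differences were tested with limma 3.58.1 in R 4.3.3 (lmFit, eBayes with trend) on log2 of the value plus 1, on the 3 samples of each line compared, without covariates. Genes with more than 4 zeros of 6 samples (8 of 12, 16 of 24) were dropped. A gene was called where its Benjamini-Hochberg adjusted p, over all genes tested, was below 0.05. The shares of all genes include genes with few reads. Among genes with a mean of at least 10 the share was higher in each comparison with a mock line. Fold changes of low genes are understated on this scale. On simulated data with 200 genes changed 2-fold for MC38-FUT9 against MC38-MOCK#2, 119 were called among 22438 genes, all in the right direction, with 0 false calls. In the same way 128 were called for MC38-COSMC KO against MC38-MOCK#1, 119 for the interaction and 153 for the F test. False calls there were 4, 5 and 8. In the data 5166 genes were called for MC38-FUT9 against MC38-MOCK#2, so the simulation does not give the error rate there. The 8 genes and the pathway lists were chosen with earlier results of these data known. The text names the 8 genes, the targeted genes, the 3 genes nearest each member with a mean of at least 10 by Pearson r, and from each list up to 3 genes called in most comparisons with the largest change. Python 3.11.15 was used otherwise. Alternatives were the pseudocount (5), a mean filter (10), 2 scalings, 1 fit of all lines, eBayes without trend, the replicate number as a block, and leaving out each sample. MC38-WT or MC38-FUT4 as reference was added after the data were seen.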

Additional observations from a re-analysis of the deposited data

Results flagged for a closer look

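The difference between MC38-COSMC KO and MC38-MOCK#1 was not the same as that between MC38-DKO and MC38-CMAS KO for 15 of the genes named, each by the interaction test of limma (adjusted p below 0.05). Among the Wnt target and feedback genes these were Rnf43 (+2.42, from -1.46 without to +0.96 with the CMAS knockout), Tcf7 (-1.53, from +0.81 to -0.71) and Ccnd1 (-0.39, from +0.26 to -0.13). C1galt1c1, the gene targeted in both lines, was among the 15 (+0.73, from -0.73 to +0.01). The pathway genes named were picked for calls in pairwise comparisons, 1 of which is part of this contrast, so the 15 are not set against a share. Of the listed pathway genes, 25 of 67 tested were called (37.3%), beside 22.1% of all genes. Among genes with a mean of at least 10, 4615 of 13532 were called.

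Of the other pathway genes named, the interaction was negative for Apc2 (-4.05), Sox9 (-3.64), Wnt11 (-3.50), Dkk2 (-2.06), Wnt10b (-2.02), Sox4 (-0.69) and Ryk (-0.40). It was positive for Apcdd1 (+1.54), Ror1 (+1.46), Tcf7l1 (+0.45) and Ccnd3 (+0.37). The calls of Ccnd3, Tcf7l1, Sox4 and Dkk2 were kept in only 5 of 19, 7 of 19, 9 of 19 and 6 of 14 other fits, that of Ryk in 16 of 19 and that of Wnt11 in 18 of 18, while those of Apc2, Sox9, Wnt10b, Apcdd1 and Ror1 were kept in 19 of 19. Wnt11 and Dkk2 rest on few reads, and their values depend on the pseudocount. Each of the 4 lines is a single line, so the knockouts and other differences between lines cannot be told apart.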

How the results depend on the processing

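No direction of a call reversed in the settings below with the same reference line. Members called were 2 in MC38-COSMC KO, 1 in MC38-CMAS KO, 0 in MC38-DKO, 2 in MC38-WT and 2 in MC38-MOCK#2 against MC38-MOCK#1, and 2 (FUT4) and 5 (FUT9) against MC38-MOCK#2. Without a variance trend 0 were called in MC38-COSMC KO and 1 in MC38-WT, with the mean filter 2 in MC38-CMAS KO (Rnf43 and Ccnd1), and with all 24 samples in 1 fit 2 in MC38-CMAS KO (Tcf7 and Ccnd1, while Rnf43 was lost at 0.0717); the causes were not tested. Over all genes this last fit called 2207 against 1268 in MC38-CMAS KO, 159 against 20 in MC38-DKO, 2981 against 1192 in MC38-WT and 3976 against 2454 in MC38-MOCK#2. Without a trend, the counts over all genes were 1135 (against 2563) in MC38-COSMC KO, 726 in MC38-CMAS KO, 40 in MC38-DKO, 717 in MC38-WT, 1389 in MC38-MOCK#2, 2270 (against 3509) in the line labelled FUT4 and 3430 (against 5166) in that labelled FUT9.

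With MC38-WT as the reference, 0 were called in MC38-COSMC KO, 0 in MC38-CMAS KO, 2 in MC38-DKO and 1 in the line labelled FUT4. Without 1 sample, 0 to 1 were called in MC38-COSMC KO, 0 in MC38-CMAS KO, 0 to 2 in MC38-WT, 0 to 2 in MC38-MOCK#2 and 3 to 5 for the interaction. Over all genes, the lowest of these counts were 675, 122, 31 and 632 in MC38-COSMC KO, MC38-CMAS KO, MC38-WT and MC38-MOCK#2, 0 in MC38-DKO, and 1621 and 3089 in the lines labelled FUT4 and FUT9. Rescaled to the same total, the calls in MC38-COSMC KO were 1 higher and 1 lower in place of 2 and 0, and those of the interaction 2 and 2 in place of 1 and 2. Over all genes this changed the calls from 1367 higher and 1196 lower to 1125 and 1747 in MC38-COSMC KO, and from 2596 and 2570 to 1979 and 3237 in the line labelled FUT9.

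The mean correlation of same-numbered samples ranged from -0.106 to 0.174. All pairs were positive in MC38-MOCK#2 against MC38-MOCK#1 (0.1585, 0.0948 and 0.2697). The same held in the line labelled FUT9 against MC38-MOCK#2 (0.0912, 0.2162 and 0.2092). Every other comparison had at least 1 negative pair. Whether the numbers pair samples was not tested, and the main fits left them unpaired. With the replicate number as a block, 0 members were called in MC38-COSMC KO, 0 in MC38-CMAS KO and 0 in MC38-WT, 1 in MC38-MOCK#2 (Ccnd1 at 0.0494, while Rnf43 at 0.0606 and Wnt9a at 0.0581 were lost), and 2 and 5 in the lines labelled FUT4 and FUT9. Over all genes, the block called 4, 1, 0 and 0 in MC38-COSMC KO, MC38-CMAS KO, MC38-DKO and MC38-WT, against 2563, 1268, 20 and 1192 without it. It called 2168 (against 2454) in MC38-MOCK#2, 1756 (against 3509) in the line labelled FUT4 and 4963 (against 5166) in that labelled FUT9. Depth limits Axin2, Rnf43, Wnt9a and Nkd1, which rest on few reads per sample.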
